A study of Mus musculus with 30 samples.

Results

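The enzymes that chemically change and clear foreign compounds are described here in mouse colon during chemical carcinogenesis. The set holds cytochromes P450 of families CYP1 to CYP4 (CYP), UDP-glucuronosyltransferases of families UGT1 and UGT2 (UGT), sulfotransferases (SULT), glutathione S-transferases of the alpha, mu, pi, theta, kappa, omega and zeta classes (GST) and carboxylesterases (CES). Members were chosen by gene symbol, with earlier results of these data known, and a count of 10 or more in at least 3 libraries was required. Of 31023 genes in the count table, 135 had a matching symbol and 99 of these passed: 41 CYP, 21 GST, 16 CES, 12 UGT and 9 SULT genes. The count tests took in 98 of the 99, because Cyp2d11 was too low for the filter on all genes.

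These families work in sequence. Phase I enzymes expose a reactive group on a lipophilic molecule, the P450s by oxidation with electrons from P450 reductase and the carboxylesterases by splitting esters and amides. Phase II enzymes then attach a water-soluble group: the UGTs glucuronic acid, the SULTs sulfate and the GSTs glutathione, after which transporters export the conjugate. In the gut the same enzymes also act on fatty acids, leukotrienes, steroids and bile pigments, and the lining cells that face the lumen are the cells known for them. Several members are transcribed under the control of ligand-activated receptors: the aryl hydrocarbon receptor for Cyp1a1, the pregnane X receptor for Cyp3a11 and the constitutive androstane receptor for Cyp2b10.

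The samples were colon tissue from C57BL/6 males, with an age given as 8 to 12 weeks and harvest on day 56 in all groups. They were sequenced as 30 libraries in 10 groups, with 3 mice per group by the series' design. Carcinogenesis was induced with 12.5 mg/kg azoxymethane by intraperitoneal injection (AOM, a colon carcinogen) and 3 cycles of 4% dextran sulfate sodium (DSS), which injures the epithelium, each 5 days long and begun on days 5, 26 and 47. Spermidine, a polyamine, was supplied at 14 mM in the drinking water for 56 days, and Smox encodes spermine oxidase, which converts spermine to spermidine. Tumors came from mice labelled Smox after AOM-DSS without spermidine, and from WT mice after AOM-DSS with spermidine. Non-tumor colon after AOM-DSS came from both genotypes, each with and without spermidine. Colon without AOM-DSS came from both genotypes with spermidine alone and from both without any treatment. Because the tumor groups differed in genotype and in spermidine, these cannot be told apart between them. No label tied a tumor library to a non-tumor library of the same mouse.

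Smox RNA was checked first. It lay between 18.6 and 68.7 CPM (counts scaled to a common library total) in the 15 libraries labelled Smox, and between 25.1 and 168.8 CPM in the 15 WT libraries. In untreated colon it was 28.7, 36.2 and 27.4 CPM in libraries labelled Smox, against 26.7, 25.1 and 27.6 CPM in WT libraries, so the ranges met. With spermidine it was 18.6 to 26.7 CPM in Smox, against 43.7 to 49.4 CPM in WT, and in AOM-DSS non-tumor colon 26.1 to 35.9 CPM in Smox, against 41.8 to 50.7 CPM in WT, without overlap in either. In AOM-DSS spermidine non-tumor colon it was 23.2 to 63.1 CPM in Smox, against 46.6 to 54.1 CPM in WT, with overlap. Smox tumors had 44.0 to 68.7 CPM, against 122.9 to 168.8 CPM in WT spermidine tumors, which also differed in spermidine. The labels give a Smox deletion without naming the exons removed, and a count over the whole gene does not show whether a truncated transcript remained. The genotype below is therefore that of the labels, also where a direction is drawn from it.

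The UGT1A genes need a look at their sequence before any of their counts. The 7 UGT1A members lie on chromosome 1 between 88070800 and 88220002 (GRCm38), and each transcript of this locus joins a first exon of its own to a common set of later exons, with exon 2 at 88215044 to 88215175 in the 3 shown. The 60 coding bases around that join are shown for the members with the highest levels, with the shared start of exon 2 in capitals:
Ugt1a1: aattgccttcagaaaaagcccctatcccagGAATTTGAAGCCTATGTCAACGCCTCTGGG
Ugt1a6a: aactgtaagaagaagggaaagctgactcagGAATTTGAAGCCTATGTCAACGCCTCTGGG
Ugt1a7c: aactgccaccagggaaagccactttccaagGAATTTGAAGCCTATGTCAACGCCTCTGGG
Their first exons start at 88211959, 88138378 and 88095064, in the order printed. The right-hand 30 bases are identical in all 3 genes, so a read from the shared exons cannot be placed in a single UGT1A gene. Of all 99 members, 18 had under 50% of their 31-base words to themselves and 55 had over 90%. For the UGT1A genes this share lay between 15.8% and 47.0%, and the division of their reads among them is uncertain.

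Promoters are printed for the members that carry the main results: 3 of the more abundant ones that fell in non-tumor colon after AOM-DSS, and the pair that rose in both sets of tumors. Each is the 250 bases before the start site in RefSeq's annotation of GRCm38.p6, read 5′ to 3′ on the gene's strand, with motif matches in capitals.
Cyp4b1, chr4:115647722-115647971, minus strand: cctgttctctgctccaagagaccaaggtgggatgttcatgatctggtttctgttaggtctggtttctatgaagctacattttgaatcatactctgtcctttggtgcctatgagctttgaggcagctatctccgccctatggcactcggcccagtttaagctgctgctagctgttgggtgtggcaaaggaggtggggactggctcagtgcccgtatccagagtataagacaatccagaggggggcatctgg
Cyp2c65, chr19:39060756-39061005, plus strand: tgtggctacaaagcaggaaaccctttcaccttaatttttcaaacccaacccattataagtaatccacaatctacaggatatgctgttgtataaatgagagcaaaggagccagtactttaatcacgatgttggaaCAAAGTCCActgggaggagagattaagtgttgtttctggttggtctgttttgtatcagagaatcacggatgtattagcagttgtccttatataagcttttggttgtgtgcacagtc
Ces1g, chr8:93337210-93337459, minus strand: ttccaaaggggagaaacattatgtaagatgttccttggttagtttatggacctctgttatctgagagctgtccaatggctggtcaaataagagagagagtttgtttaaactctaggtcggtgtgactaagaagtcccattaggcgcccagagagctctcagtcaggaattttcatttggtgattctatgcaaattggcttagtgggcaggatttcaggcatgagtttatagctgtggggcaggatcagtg
Cyp2b10, chr7:25897408-25897657, plus strand: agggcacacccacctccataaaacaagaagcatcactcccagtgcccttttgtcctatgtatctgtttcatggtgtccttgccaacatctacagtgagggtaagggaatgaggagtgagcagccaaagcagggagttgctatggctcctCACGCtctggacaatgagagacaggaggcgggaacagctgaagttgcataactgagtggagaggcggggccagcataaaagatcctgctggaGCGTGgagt
Gstm5, chr3:107895604-107895853, plus strand: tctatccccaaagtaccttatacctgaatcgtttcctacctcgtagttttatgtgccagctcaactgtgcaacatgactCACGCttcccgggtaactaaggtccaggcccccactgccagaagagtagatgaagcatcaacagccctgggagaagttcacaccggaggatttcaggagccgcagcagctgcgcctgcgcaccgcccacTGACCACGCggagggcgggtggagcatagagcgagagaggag
On both strands, 4 motifs were searched: GCGTG, the core bound by the aryl hydrocarbon receptor, TGACNNNGC, the core of the antioxidant response element, CAAAGTCCA for HNF4 and the palindrome of HNF1. Cyp2c65 held 1 HNF4 match, Cyp2b10 held 2 aryl hydrocarbon receptor cores, and Gstm5 held 2 of these cores, of which 1 overlapped its antioxidant response element core. The promoters of Cyp4b1 and Ces1g held no match, which says only that these letters are not in these windows. Over 84 members found in the promoter table, the HNF4 letters stood in 6 (7.14%), all of them CYP2C or CYP3A genes (Cyp2c40, Cyp2c65, Cyp2c67, Cyp2c68, Cyp2c69 and Cyp3a11), against 0.381% of all 27025 promoters. The transcripts of Cyp2c40, Cyp2c67, Cyp2c68 and Cyp2c69 each share 46.6% to 57.7% of their 31-base words with a neighbour among them. Matches in such like copies may not be independent, so the 2 shares do not measure an enrichment. The receptor core stood in 17 members (20.2%) against 28.2% of all promoters, the antioxidant core in 3 (3.57%) against 10.1%, and the HNF1 palindrome in none against 0.0074%.

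Library totals lay between 33060607 and 81011304 counts, with a median of 58654553. Epithelial markers were at a summed 10720 to 20470 CPM in every library, and hepatocyte markers, whose presence would matter for liver-type enzymes, at 3.29 to 65.9 CPM, with the fibrinogen gene Fgb at 0 in 7 of the 10 groups. WT untreated replicate 3 stood apart: its skeletal muscle markers averaged 10.03 on the log2 scale of CPM + 0.5, against 1.42 and 1.58 in the other WT untreated libraries, and its HOX genes of the distal hindgut averaged 0.54, against 6.04 and 6.22. Another library apart from its group was replicate 1 of Smox AOM-DSS spermidine non-tumor colon, whose crypt and proliferation markers averaged 6.79, within the 6.26 to 7.20 of the tumors. These 2 are the atypical libraries below, and results that rest on them are given with and without both. Single marker lists also set other libraries apart: squamous epithelium markers averaged 8.08 in Smox untreated replicate 3, against 0.01 and 3.13 in the other 2, and skeletal muscle markers 7.51 in Smox spermidine replicate 1, against 1.06 and 1.38. Crypt and proliferation markers averaged 6.21 in WT AOM-DSS non-tumor replicate 1, against 4.54 and 4.09, and smooth muscle markers 7.36 in Smox tumor replicate 3, against 2.90 and 3.58.

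Cyp2c55, a colon P450 that hydroxylates arachidonic acid, was the most abundant member. Per kilobase of exon it averaged 613 CPM over the 30 libraries, followed by Gstp1 at 220, Gsto1 at 173, Ces2c at 136, Gstm1 at 124 and Sult1a1 at 113 CPM per kb. In WT untreated colon it held 74.0% of the summed P450 signal, with 1435 ± 1062 CPM per kb (SD, n = 3, the atypical replicate included). Elsewhere the load was more even, with Sult1a1, a phenol sulfotransferase, holding 36.2% of its family, Ces2c 35.5%, Ugt2b34 34.9% and Gstp1, the pi-class transferase, 27.5%. In WT untreated colon, 20 members averaged 100 CPM or more and 23 were under 1 CPM. Among these low ones were Cyp1a1, Cyp3a11 and Cyp2e1, P450s well known from liver.

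**Figure D1:**
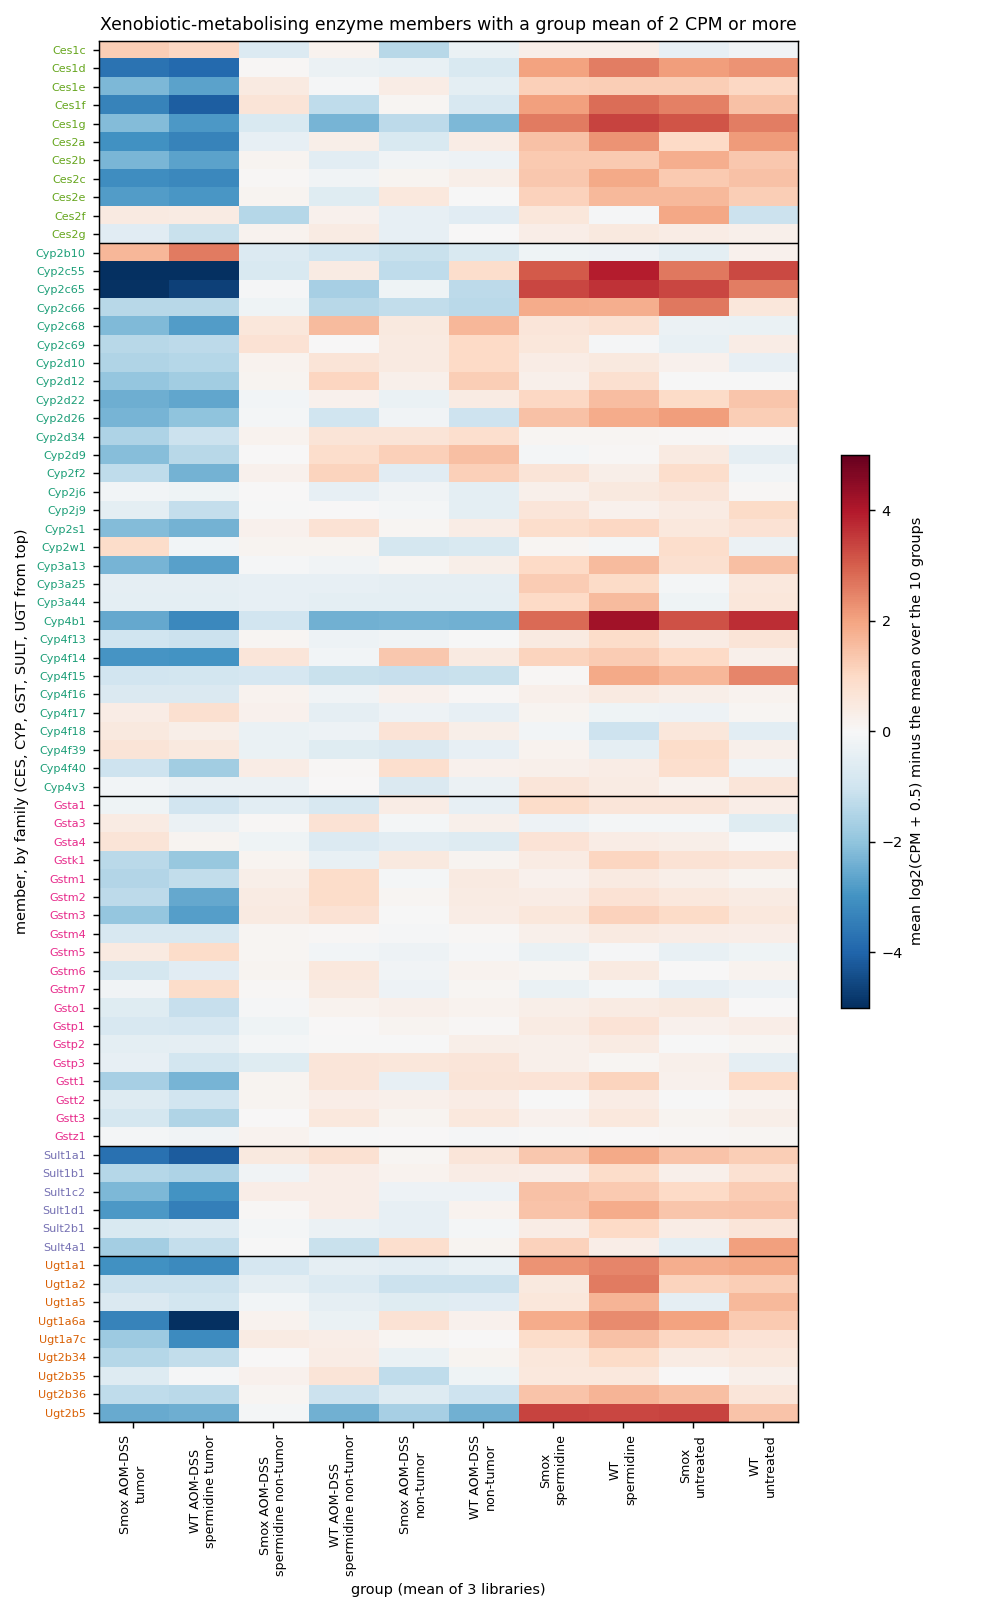
Mean log2(CPM + 0.5) of each of 75 members whose mean reached 2 CPM in 1 or more groups, minus that member's mean over the 10 groups (colour, from -5 to 5), with members as rows by family and groups as columns. Both tumor columns are the low ones for most rows, and Gstm5, Cyp2b10 and a few others run the other way.

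Summed by family, 4 of the 5 families were low in tumors and intermediate in colon after AOM-DSS. The P450 sum was 91.8 ± 20.9 CPM per kb in Smox tumors and 88.9 ± 29.3 in WT spermidine tumors (SD, n = 3 in each group here). It was 387 ± 60.9 in Smox AOM-DSS non-tumor colon and 459 ± 139 in WT AOM-DSS spermidine non-tumor colon. WT untreated colon had 1940 ± 1224, with 3307 in atypical replicate 3 against 1566 and 946.5 in the others. WT spermidine colon had 2560 ± 884. Carboxylesterases summed to 33.4 ± 15.3 in Smox tumors and 28.6 ± 20.5 in WT spermidine tumors, against 221 ± 105 and 173 ± 67.7 CPM per kb in their non-tumor groups. Each tumor library lay below each non-tumor library of its own comparison in both families.

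The conjugating families had the same order. UGTs summed to 45.4 ± 9.96 CPM per kb in Smox tumors and 43.1 ± 10.96 in WT spermidine tumors, against 132 ± 13.0 and 172 ± 37.1 in the matching non-tumor groups. SULTs summed to 36.2 ± 13.8 and 32.0 ± 15.4 in these tumors, against 173 ± 5.40 and 248 ± 53.9 CPM per kb. The GSTs kept a larger share of their level, with 571 ± 84.5 in Smox tumors and 503 ± 50.4 in WT spermidine tumors, against 890 ± 101 and 991 ± 99.5 CPM per kb in non-tumor colon. Again no tumor library reached its non-tumor group. The UGT1A genes, whose per-kb sum still depends on how shared reads were divided among them, together had 15.6 ± 9.78 in Smox tumors and 7.46 ± 5.47 in WT spermidine tumors, against 73.7 ± 5.59 and 70.75 ± 16.97 CPM per kb. In bulk tissue, fewer cells of a type and less RNA per cell cannot be told apart.

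**Figure D2:**
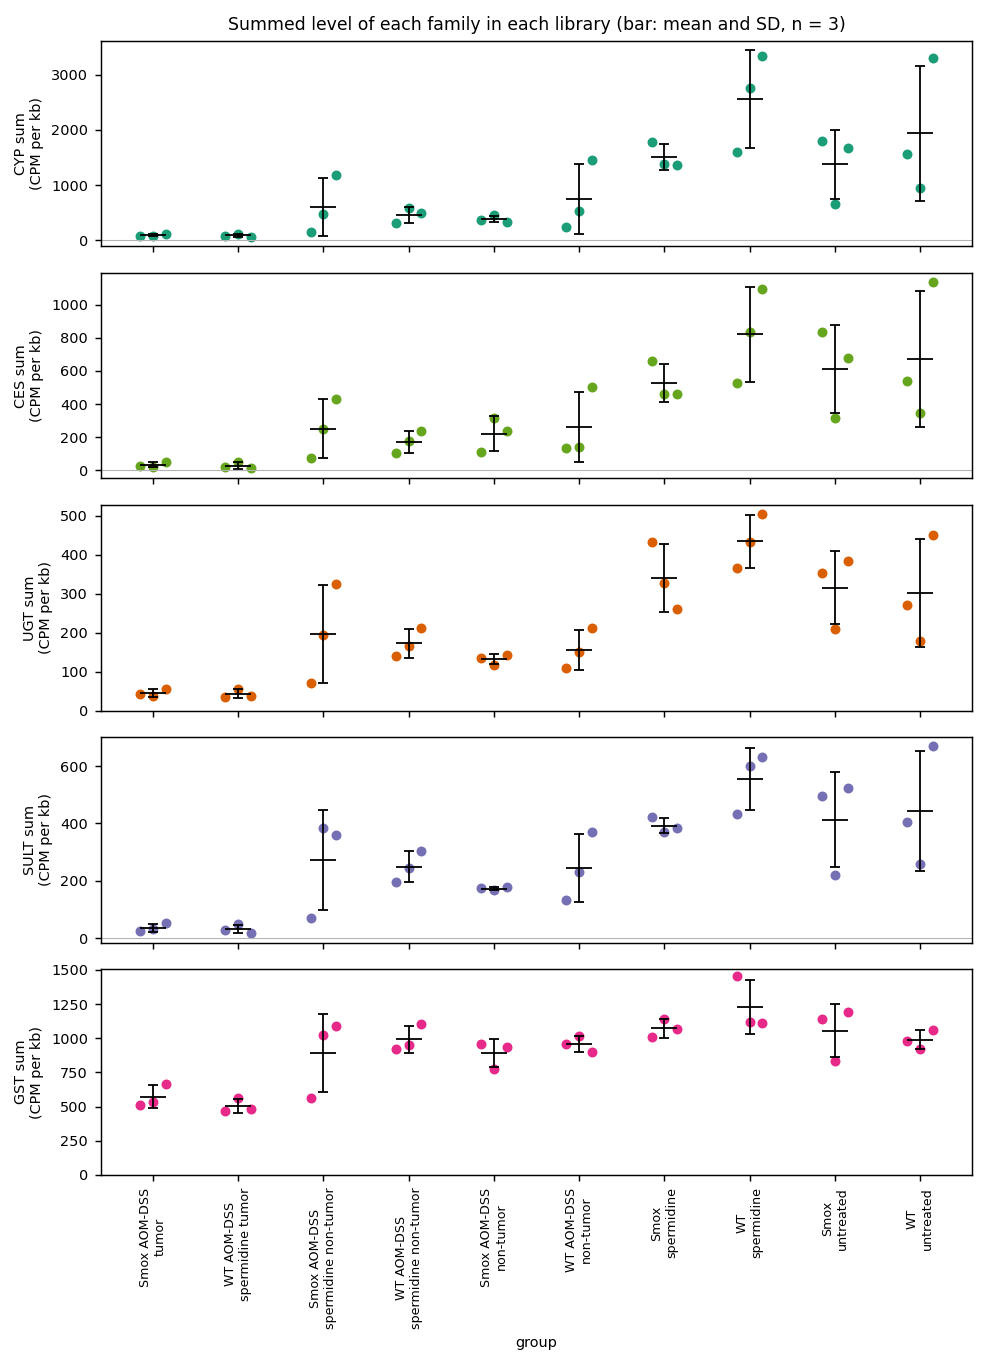
Summed CPM per kb of each family (vertical axis) in each library (points) of the 10 groups, with the group mean and SD. Tumor groups are lowest in each panel, and the GST panel has the smallest gap to the other groups, with replicate 1 of Smox AOM-DSS spermidine non-tumor colon at 561, inside the tumors' range of 468 to 667.

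The make-up of the families differed between groups as well. Cyp2c55 led the P450s in every non-tumor group after AOM-DSS, with 17.7% of the sum in Smox and 50.8% in WT. With spermidine these shares were 40.8% in Smox and 38.2% in WT. In tumors Cyp2j6 led the P450s instead, with 18.1% to 18.8% of the sum. Ugt2b34 made up 57.2% of the UGT sum in Smox tumors and 70.6% in WT spermidine tumors, and Sult1b1, a thyroid hormone sulfotransferase, made up 49.8% and 49.9% of the SULT sum. Over the 10 group means, 69 members had their lowest value in a tumor group and 7 their highest. The like share over all genes was not taken, so these counts have no background. The 69 include members that were very low throughout, such as Ces2h, whose highest group mean was 0.24 CPM. Gstz1, which isomerises maleylacetoacetate in tyrosine breakdown, barely moved: its group means spanned 0.35 on the log2 scale.

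Tumors were compared with non-tumor colon within the same genotype and treatment, which asks how far the enzyme set differs in the lesion. In WT mice with spermidine, 49 of 98 members fell and 3 rose in tumors, where 17.5% of all 19558 genes tested fell and 16.9% rose. In mice labelled Smox without spermidine, 45 fell and 7 rose, where 13.2% of all genes fell and 11.4% rose. Calls here and below are adjusted p-values under 0.05 from edgeR's quasi-likelihood test, with Benjamini-Hochberg adjustment over all genes tested. Shares of all genes are of these calls. Counts of members at an unadjusted p, by DESeq2 or in other fits are given without such a share and are not results about the members. The median log2 change of the members was -1.69 in WT and -1.27 in Smox, against 0.01 and -0.01 over all genes. The comparisons share no library: 39 members fell in both, which is 86.7% of the Smox and 79.6% of the WT list. For all genes that fell, the shared 1618 made up 62.6% and 47.3% of the lists in that order.

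Among the P450s, 18 of 40 fell in WT spermidine tumors and 16 in Smox tumors. Cyp2c55 (ENSMUSG00000025002.5, chromosome 19, 39007019 to 39042693) had 1.89, 10.4 and 4.42 CPM in WT spermidine tumors, against 161, 523 and 366 CPM in non-tumor colon. In Smox tumors it had 10.1, 0.647 and 0.635 CPM, against 288, 80.0 and 41.5 CPM in non-tumor colon. Neither pair of groups overlapped, and the fitted change was 62.8-fold lower in WT (log2 -5.97, SE 1.44, adjusted p = 0.00371) and 35.9-fold lower in Smox (log2 -5.17, SE 1.39, adjusted p = 0.0137).

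Cyp2c65, its neighbour on chromosome 19 and another intestinal CYP2C, had 0.748, 0.154 and 0.367 CPM in Smox tumors, against 34.9, 23.4 and 14.5 CPM in non-tumor colon. It fell 56.8-fold there (log2 -5.83, SE 1.20, adjusted p = 0.0049), and in WT spermidine tumors its log2 change was -3.89 (SE 1.11, adjusted p = 0.0103). Of the 8 CYP2C genes between 39007019 and 44029208 on that chromosome, 7 fell in WT and 5 in Smox. Of these, Cyp2c40, Cyp2c67, Cyp2c68 and Cyp2c69 have only 27.4% to 38.0% of their 31-base words to themselves. The division of reads among them is uncertain, and their calls are not separate results. Cyp2c40, Cyp2c67 and Cyp2c69 were also low, with 6, 6 and 5 counts in WT spermidine tumors. Cyp4f14, which inactivates leukotriene B4, had 5.77, 3.94 and 6.61 CPM in Smox tumors, against 77.4, 181 and 107 CPM in non-tumor colon, 22.4-fold lower (log2 -4.48, SE 0.75, adjusted p = 0.00253). Cyp2s1, a P450 expressed mainly outside the liver, had 12.6, 25.9 and 9.69 CPM in WT spermidine tumors, against 129, 137 and 116 CPM in non-tumor colon (log2 -2.99, SE 0.45, adjusted p = 0.000251). In Smox tumors it had 16.3, 17.9 and 16.3 CPM, against 69.8, 98.3 and 85.8 CPM (log2 -2.33, SE 0.44, adjusted p = 0.00406). Tumor and non-tumor values of both genes were separate in each named comparison. Cyp3a13, the main intestinal CYP3A of mice, also fell, with a log2 change of -2.38 in WT.

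Carboxylesterases followed, with 8 of 16 lower in WT spermidine tumors and 10 in Smox tumors. Ces2c, an intestinal ester hydrolase, had 19.2, 15.2 and 28.3 CPM in Smox tumors, against 84.7, 377 and 229 CPM in non-tumor colon, 11.02-fold lower (log2 -3.46, SE 0.72, adjusted p = 0.00509). In WT it had 18.6, 35.5 and 9.23 CPM in spermidine tumors, against 95.8, 178 and 226 CPM in non-tumor colon (log2 -2.98). Its groups did not overlap in either genotype, although only 49.9% of its 31-base words are its own. The CES2 cluster on chromosome 8 (104734003 to 105021178) had 5 of 7 members lower in each comparison, and the CES1 cluster (93056728 to 93379725) had 3 of 7. Ces3a had no count in Smox tumors and was at least 35.2-fold lower there. It had 10 or more counts in only 3 libraries, with its highest mean, 0.622 CPM, in Smox AOM-DSS non-tumor colon. The call held in 3 of the 6 fits that left out a library, so this bound rests on few counts.

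The UGT median log2 change was -3.33 in WT and -1.19 in Smox, with 6 and 5 of 12 called lower. Ugt1a7c had 9.90, 44.5 and 11.9 CPM in WT spermidine tumors, against 159, 182 and 265 CPM in non-tumor colon (log2 -3.19, SE 0.53, adjusted p = 0.000366). In Smox tumors it had 29.5, 30.7 and 93.8 CPM, against 191, 143 and 185 CPM. The groups were separate in both genotypes. Ugt1a6a, a phenol glucuronidating gene of the same locus, changed by -4.64 (SE 0.97, adjusted p = 0.00145) in WT. Ugt1a1, the bilirubin enzyme, had 3.76, 4.97 and 3.42 CPM in Smox tumors, against 21.6, 31.3 and 23.9 CPM in non-tumor colon.

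Sult1a1 (ENSMUSG00000030711.16, chromosome 7, 126672865 to 126676432) had 4.00, 13.8 and 1.63 CPM in WT spermidine tumors, against 127, 139 and 213 CPM in non-tumor colon. In Smox tumors it had 5.15, 4.20 and 11.4 CPM, against 118, 92.8 and 84.5 CPM in non-tumor colon. Every tumor library was below every non-tumor library, and the fold was 24.7 lower in WT (log2 -4.63, SE 0.80, adjusted p = 0.000473) and 14.2 lower in Smox (log2 -3.83, SE 0.77, adjusted p = 0.00487). In all, 5 of 9 SULTs fell in each comparison. Sult1d1 had a log2 change of -3.53 in WT. Sult4a1, a sulfotransferase best known from brain, had 0.293, 0.293 and 0.868 CPM in Smox tumors, against 4.47, 8.28 and 3.23 CPM in non-tumor colon (log2 -3.46, SE 0.74, adjusted p = 0.00556), with no overlap.

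The GSTs fell less, with median log2 changes of -0.93 in WT and -0.79 in Smox, although 12 and 9 of 21 were called lower. All 3 theta-class genes on chromosome 10 fell in both. Gstt1 had 1.23, 3.45 and 1.41 CPM in WT spermidine tumors, against 13.3, 17.1 and 23.2 CPM in non-tumor colon, 8.79-fold lower (log2 -3.14, SE 0.46, adjusted p = 0.000241). Gstm2 had 4.16, 18.7 and 5.23 CPM in WT spermidine tumors, against 71.9, 86.9 and 115 CPM (log2 -3.28, SE 0.50, adjusted p = 0.000261). Both genes were separate between tumor and non-tumor colon. The most abundant transferase, Gstp1, had 170, 192 and 173 CPM in WT spermidine tumors, against 325, 310 and 350 CPM (log2 -0.88, SE 0.24, adjusted p = 0.009), and in Smox its log2 change was -0.90 (SE 0.25, adjusted p = 0.0145).

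Few members ran the other way, and Cyp2b10 and Gstm5 rose in both. Cyp2b10 (ENSMUSG00000030483.14, chromosome 7, 25897620 to 25926624) had 8.34, 4.42 and 6.59 CPM in WT spermidine tumors, against 0.114, 0.0156 and 0.0318 CPM in non-tumor colon. In Smox tumors it had 6.57, 4.79 and 0.651 CPM, against 0.0340, 0.0173 and 0 CPM. The tumor and non-tumor libraries did not overlap in either genotype. The WT change was 111-fold higher (log2 6.79, SE 1.58, adjusted p = 0.00287), and no fold is given for Smox because its non-tumor libraries held 3 counts together, against 798 in its tumors (adjusted p = 0.00676). Untreated WT colon had 0.835, 0.999 and 0.596 CPM, between the levels of non-tumor colon after AOM-DSS and those of most tumors.

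Gstm5 (ENSMUSG00000004032.10, chromosome 3, 107895821 to 107898686), a mu-class transferase, had 61.3, 59.6 and 94.97 CPM in WT spermidine tumors, against 31.2, 33.4 and 37.2 CPM in non-tumor colon. In Smox tumors it had 53.0, 64.9 and 37.2 CPM, against 29.4, 27.9 and 35.6 CPM in non-tumor colon. All tumor values were higher, if barely in 1 Smox tumor, and the change was 2.12-fold in WT (log2 1.08, SE 0.24, adjusted p = 0.00208) and 1.67-fold in Smox (log2 0.74, SE 0.24, adjusted p = 0.0298). It lies in the mu-class cluster between 107895821 and 108044894, in the order Gstm5, Gstm7, Gstm6, Gstm3, Gstm2, Gstm1, Gstm4. In the same cluster 5 genes fell in WT and 3 in Smox.

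Others rose in a single comparison. Cyp4f17 had 5.33, 3.40 and 4.47 CPM in WT spermidine tumors, against 1.39, 1.47 and 1.65 CPM in non-tumor colon (log2 1.55, SE 0.35, adjusted p = 0.00226). Ces1c, which mice secrete into plasma as an esterase, had 10.2, 6.24 and 0.768 CPM in Smox tumors, against 0.493, 0.138 and 0.108 CPM, 22.9-fold higher (log2 4.52, SE 1.10, adjusted p = 0.00895). Cyp2w1, a P450 reported from human colon tumors, had 2.45, 3.34 and 7.33 CPM in Smox tumors, against 0.459, 0.639 and 1.47 CPM (log2 2.36, SE 0.53, adjusted p = 0.00664). None of the 3 overlapped between its groups.

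Gsta4, which conjugates the lipid peroxidation product 4-hydroxynonenal, had 98.3, 111 and 75.3 CPM in Smox tumors, against 48.6, 39.7 and 35.2 CPM in non-tumor colon (log2 1.20, SE 0.43, adjusted p = 0.0429). Its WT log2 change was 0.83 (SE 0.42, adjusted p = 0.132), which did not pass the test. Cyp4f39 rose by a log2 of 2.09 in Smox (adjusted p = 0.0468), and Gsta2 was called higher there on 34 counts against 1. The difference between the tumor changes of the genotypes was itself tested: edgeR called none of 98 members, 13 reached an unadjusted p under 0.05, DESeq2 called 2, and 0.0102% of all genes were called. So the calls in a single comparison are not shown to differ between the genotypes.

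**Figure D3:**
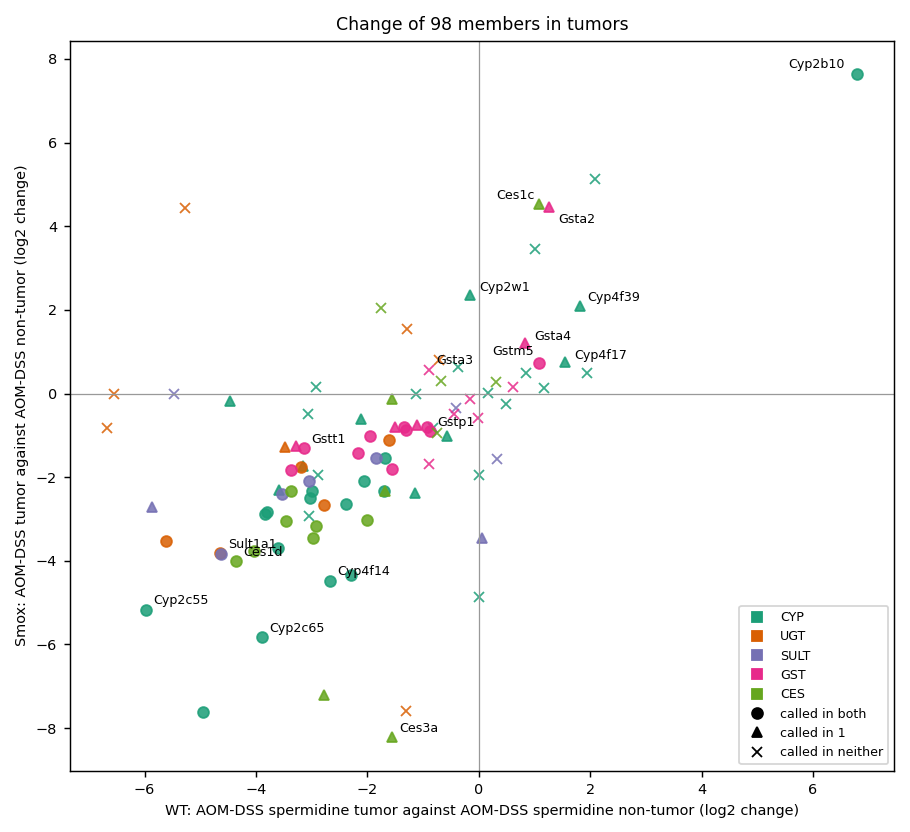
Log2 change of 98 members in tumors against non-tumor colon, in WT with spermidine (horizontal axis) and in Smox without it (vertical axis), with family by colour and calls by symbol: circles called in both, triangles in 1, crosses in neither. Most circles lie in the lower left, from Gstp1 near -0.9 on both axes to Cyp2c55 at -5.97 and -5.17, while Cyp2b10 stands alone at the upper right.

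Set against each other, Smox tumors and WT spermidine tumors gave no called member with edgeR, while 7 had an unadjusted p under 0.05, DESeq2 called 0 and 0.0614% of all genes were called. Of the 52 WT tumor calls, 35 held whichever library was left out, among them every WT call given with an SE above other than that of Cyp2c65. In Smox 12 of 52 did, namely Ces1c, Ces2c, Cyp2b10, Cyp2c65, Cyp2c69, Cyp2d9, Cyp2s1, Cyp2w1, Cyp3a13, Cyp4f14, Sult1a1 and Sult4a1, and the count of calls was 15 without tumor replicate 1, 16 without tumor replicate 2 and 34 without non-tumor replicate 3. Gstm5 was called in Smox in 2 of the 6 fits that left out a library of its groups, Gsta4 and Cyp4f39 in 1 each and Gsta2 in none.

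The wider pathway was followed in 5 further lists. Of 12 receptors and regulators, 1 rose and 7 fell in WT spermidine tumors, and 1 rose and 4 fell in Smox tumors. The aryl hydrocarbon receptor gene Ahr was the one that rose, with log2 changes of 0.86 in WT and 0.99 in Smox, while its repressor Ahrr changed by -2.77 and -2.02. The pregnane X receptor gene Nr1i2 changed by -1.38 and -1.03, the fatty acid receptor gene Ppara by -2.31 and -1.81, and the bile acid receptor gene Nr1h4 by -1.36 and -1.64, all 3 lower in both. Hnf4a, an epithelial regulator of many liver and gut enzymes, fell by 1.22 on the log2 scale in WT (adjusted p = 0.000886) and had a log2 change of -0.51 in Smox (adjusted p = 0.108).

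Cofactor supply and transport were followed beside the background of 17.5% of all genes falling in WT and 13.2% in Smox. Of 12 genes for electron donors and cofactors, 4 fell in WT and 2 in Smox, the count in Smox being near that background, among them Ugdh, which makes UDP-glucuronic acid, at -1.86 and -1.89. Of 14 other phase I genes tested, 10 fell in WT and 5 in Smox, with Aadac, another esterase, at -3.51 and -4.77 and the retinal dehydrogenase gene Aldh1a1 at -2.89 and -3.29. Of 8 other phase II genes, 5 fell and 1 rose in WT and 6 fell in Smox. The 11 transporters were split. Abcc1, Abcc2 and Abcc4, exporters of conjugates and organic anions, rose in both, Abcc2 by a log2 of 4.89 in WT and 3.76 in Smox. The efflux pumps Abcb1a (-3.92 and -2.47) and Abcg2 (-2.97 and -2.51) fell in both.

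Cell type markers moved with the tumor results. Of 10 mature colonocyte markers, 8 fell in WT spermidine tumors and 7 in Smox tumors, and their mean log2 level was 4.39 to 5.60 in WT spermidine tumors, against 7.69 to 8.23 in non-tumor colon, and 3.88 to 5.06 in Smox tumors, against 7.44 to 8.16. Of 8 crypt and proliferation markers, 6 rose in each, and of 6 goblet cell markers 4 fell in WT and 5 in Smox. Markers of epithelium at large, 7 in all, had 1 riser and 4 fallers in WT and 1 riser in Smox. All 5 smooth muscle markers fell in WT and 1 in Smox. Of 5 neutrophil and inflammation markers 4 rose in WT and none was called in Smox, with means of 4.33 to 5.92 in WT spermidine tumors, against -0.02 to 1.87 in non-tumor colon, and 5.38 to 5.58 in Smox tumors, against 3.32 to 5.74. Of 5 squamous epithelium markers none was called in WT and 2 rose in Smox, with means of 1.93 to 2.14 in WT spermidine tumors, against -0.49 to 0.59, and 1.65 to 4.91 in Smox tumors, against -0.23 to 0.64. Of the 5 HOX genes of hindgut position 3 rose in Smox, with means of 6.05 to 6.19 in Smox tumors, against 2.87 to 3.36 in non-tumor colon, while none was called in WT. Small intestine markers, 5 in all, averaged -0.79 to -0.04 in WT spermidine tumors, against 1.01 to 1.09 in non-tumor colon. In Smox tumors they averaged -0.47 to 0.09, against 0.95 to 1.06 in non-tumor colon. The part of these cell types, and of position along the colon, in the enzyme changes was not tested.

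**Figure D4:**
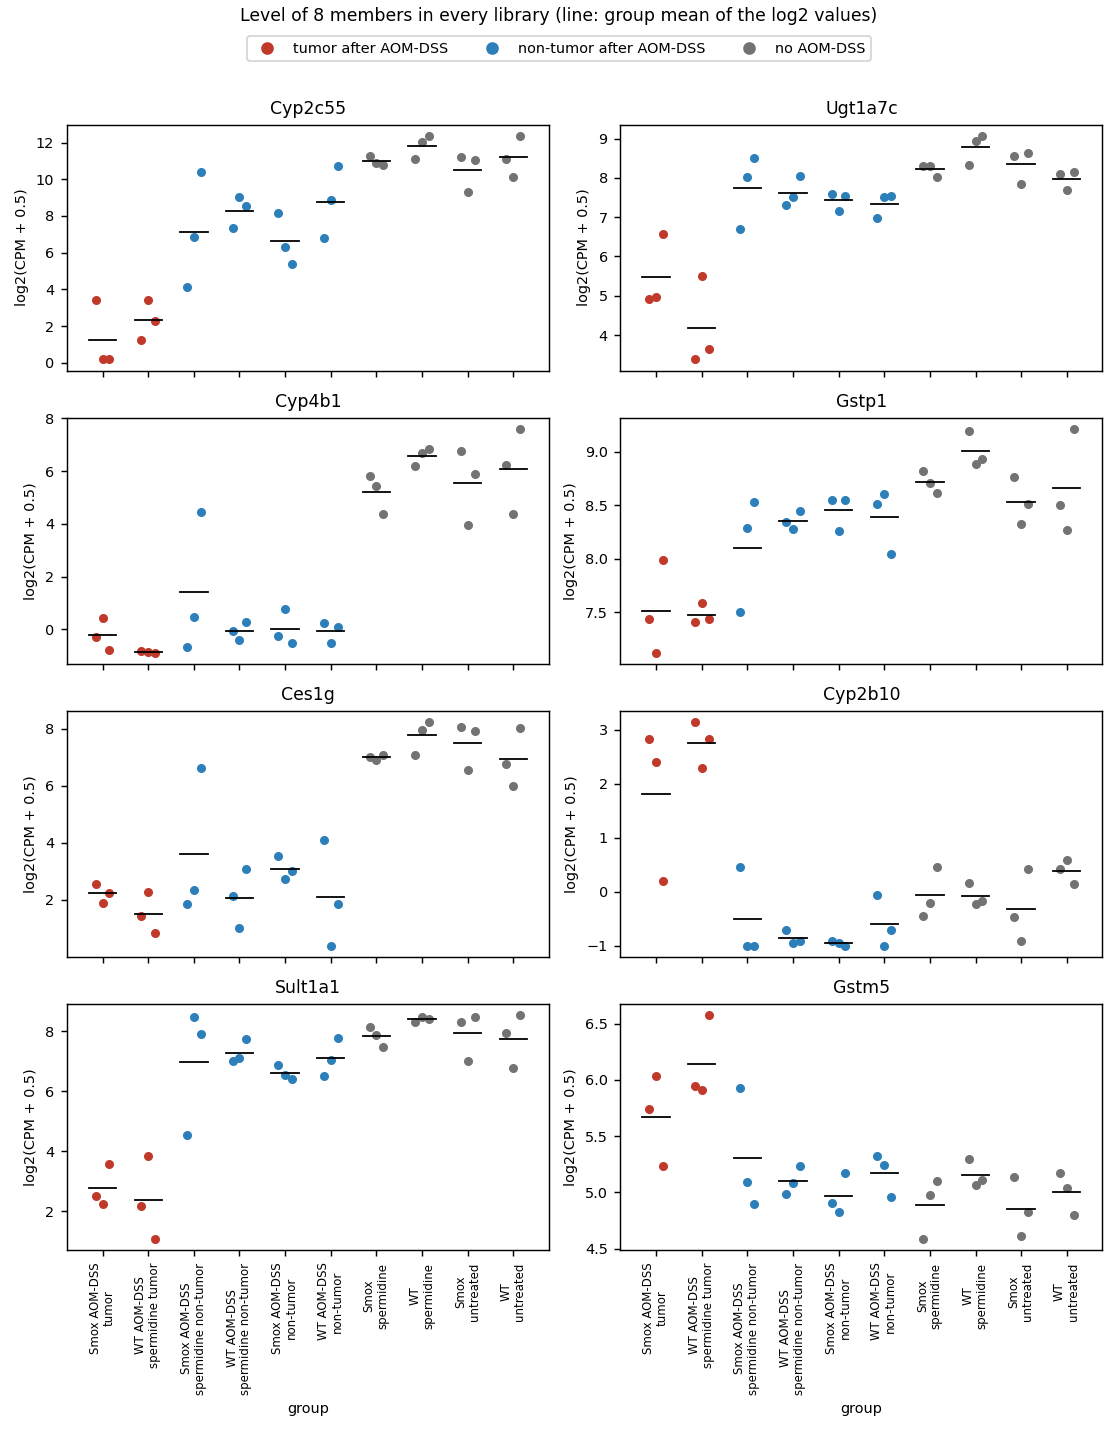
Level as log2(CPM + 0.5) of Cyp2c55, Ugt1a7c, Cyp4b1, Gstp1, Ces1g, Cyp2b10, Sult1a1 and Gstm5 in each library of the 10 groups. Cyp4b1 and Ces1g are already low in most non-tumor libraries after AOM-DSS, whereas Sult1a1 and Ugt1a7c are lowest in the tumors.

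Non-tumor colon after AOM-DSS was set against colon without it, which asks what changed outside the tumors. In WT mice without spermidine 15 of 98 members fell and none rose, where 4.68% of all genes fell and 1.76% rose. The median log2 change was -0.62, against 0.00 over all genes. In WT mice with spermidine, set against spermidine alone, 9 members fell and none rose, where 1.48% of all genes fell and 0.435% rose, with a median of -0.65 against 0.01. These comparisons share no library, and 8 members fell in both: Cyp4b1, Cyp4f15, Cyp2c65, Cyp2d26, Cyp3a44, Ces1g, Ugt2b5 and Ugt2b36. That is 88.9% of the spermidine list and 53.3% of the other. Of all genes that fell, 156 were shared, 54.0% and 17.0% of the lists. No GST was called in either comparison.

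Cyp4b1 (ENSMUSG00000028713.17, chromosome 4, 115624725 to 115647723), which hydroxylates fatty acids and bioactivates aromatic amines, had 0.698, 0.209 and 0.564 CPM in WT AOM-DSS non-tumor colon, against 73.9, 20.1 and 193 CPM in WT untreated colon. With spermidine it had 0.457, 0.266 and 0.730 CPM after AOM-DSS, against 72.1, 103 and 113 CPM without. The groups were far apart in both, 195-fold (log2 -7.60, SE 1.40, adjusted p = 0.0122) and 205-fold (log2 -7.68, SE 1.41, adjusted p = 0.0125). In mice labelled Smox it had 0.340, 1.23 and 0.194 CPM in AOM-DSS non-tumor colon, against 108, 14.95 and 59.4 CPM in untreated colon, also without overlap (log2 -6.67, SE 1.34, adjusted p = 0.051). Tumors had 0.323, 0.847 and 0.0835 CPM in Smox and 0.0658, 0.0491 and 0.0461 CPM in WT, and no change between tumor and non-tumor colon was called for this gene.

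Ces1g (ENSMUSG00000057074.6, chromosome 8, 93302369 to 93337308), a carboxylesterase of lipid handling in mouse liver, had a like course. It had 16.5, 0.820 and 3.16 CPM in WT AOM-DSS non-tumor colon, against 107, 63.7 and 259 CPM in WT untreated colon, 21.0-fold lower (log2 -4.39, SE 1.09, adjusted p = 0.0269). With spermidine it had 3.89, 1.52 and 7.97 CPM after AOM-DSS, against 135, 249 and 300.2 CPM without, 51.9-fold lower (log2 -5.70, SE 1.16, adjusted p = 0.0174). No library after AOM-DSS reached one without it. Smox AOM-DSS non-tumor colon had 10.99, 6.14 and 7.65 CPM, against 267, 93.8 and 241 CPM in Smox untreated colon, separate as well, with an adjusted p of 0.0868.

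Cyp2c65 had 8.71, 16.6 and 7.65 CPM in WT AOM-DSS non-tumor colon, against 149, 57.7 and 450 CPM in WT untreated colon (log2 -4.32, SE 1.07, adjusted p = 0.0269). With spermidine it had 11.8, 9.03 and 4.95 CPM after AOM-DSS, against 226, 393 and 413 CPM without (log2 -5.31, SE 1.12, adjusted p = 0.0202). Both pairs were separate, and Cyp2c65 was lower again in the tumors. Its neighbour Cyp2c55 did not pass the test here: it had 110, 460 and 1694 CPM in WT AOM-DSS non-tumor colon, against 2233, 1130 and 5225 CPM in WT untreated colon, with overlap (log2 -1.92, SE 1.20, adjusted p = 0.337).

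Ces1f, another CES1 gene, was called in the comparison with spermidine and not in the other: it had 4.38, 3.38 and 20.5 CPM in WT AOM-DSS spermidine non-tumor colon, against 118, 124 and 119.5 CPM in WT spermidine colon, 12.9-fold lower without overlap (log2 -3.69, SE 0.95, adjusted p = 0.0447). Ces1d, of the same cluster, was called in the comparison without spermidine, with 12.3, 3.52 and 11.2 CPM in WT AOM-DSS non-tumor colon, against 71.8, 36.7 and 120.0 CPM in WT untreated colon (log2 -3.08, SE 0.86, adjusted p = 0.0391). Ugt2b5 had 0.0175, 0.0698 and 0.0188 CPM in WT AOM-DSS non-tumor colon, against 7.37, 1.32 and 31.1 CPM in WT untreated colon, 351-fold lower (log2 -8.45, SE 1.83, adjusted p = 0.018). Cyp2d26 had 4.56, 6.56 and 13.7 CPM, against 38.5, 15.4 and 93.9 CPM in the same groups (log2 -2.58, SE 0.64, adjusted p = 0.0269). Both sets of values were separate, whereas those of Ugt2b36 overlapped (adjusted p = 0.0382). Members with no count in WT AOM-DSS non-tumor colon were at least 42.9-fold (Sult1e1, the estrogen sulfotransferase), 35.0-fold (Cyp3a25), 34.2-fold (Cyp3a44), 17.0-fold (Cyp3a11) and 198-fold (Ugt1a2) lower. Ugt1a2 was also at 0 in 1 of the WT untreated libraries, so its groups overlapped. Cyp4f15 had 2 counts in WT AOM-DSS non-tumor colon, against 1411 in WT untreated colon. Sult1e1 had 10 or more counts in only 3 libraries, Cyp3a11 in 5, and Cyp3a25 and Cyp3a44 in 8 each. Sult1e1 and Cyp3a11 were highest in WT untreated colon, the reference here, so passing the filter favoured a fall from it. The WT untreated level of Sult1e1 was uneven, at 0.604 ± 0.939 CPM per kb (SD, n = 3). Without both atypical libraries, neither Cyp4f15 nor any member without a count in WT AOM-DSS non-tumor colon was called, with an adjusted p of 0.204 for Sult1e1 by edgeR.

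**Figure D5:**
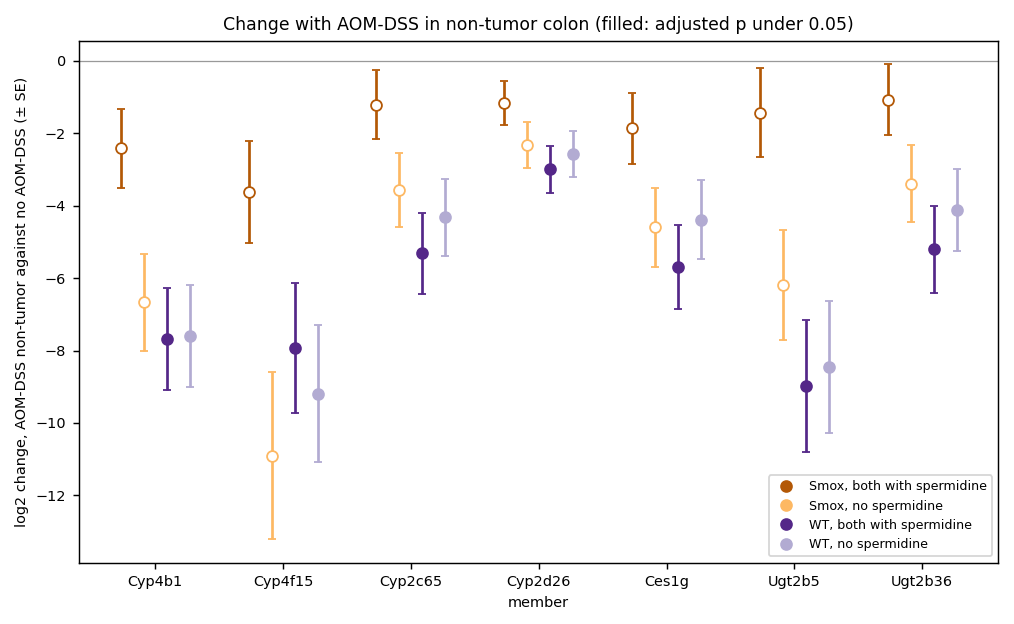
Log2 change with its SE of 7 members in non-tumor colon after AOM-DSS, in WT and in Smox, each without and with spermidine; filled symbols passed an adjusted p of 0.05. All 28 points lie below 0, the filled ones are WT, and the Smox spermidine points lie nearest to 0.

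In mice labelled Smox edgeR called no member after AOM-DSS. Without spermidine an unadjusted p under 0.05 was found for 34 members, and 16 were called by DESeq2, counts given without a like share of all genes. The median log2 change was -0.79, and edgeR called 0.0767% of all genes. With spermidine the same counts were 11 and 4, with a median of -0.46 and 0.0205% of all genes called. Replicate 3 of Smox AOM-DSS spermidine non-tumor colon was high for the members named above. It had 345 CPM of Cyp2c65 against 5.45 and 8.12 in replicates 1 and 2, 97.9 of Ces1g against 3.16 and 4.63, and 21.1 of Cyp4b1 against 0.132 and 0.880. Without it 6 members were called, and the share of all genes called in that fit is not given here. Its HOX position genes averaged 1.74, against 3.62 and 3.83 in the other 2 libraries, and the part of position was not tested.

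The difference between the genotypes in the AOM-DSS change gave no called member with edgeR, with 4 at an unadjusted p under 0.05, 1 with DESeq2 and 0% of all genes called. Hence the calls in WT are not shown to differ from the change in Smox. None of the WT calls without spermidine survived leaving out each library in turn: leaving out WT untreated replicate 3 or WT AOM-DSS non-tumor replicate 2 left 0, leaving out replicate 1 of the AOM-DSS group left 5 and its replicate 3 left 3, and fitting without both atypical libraries left 2 (Cyp4b1 and Ugt2b5). With spermidine it was 0 without any 1 of the WT AOM-DSS spermidine non-tumor libraries, 4 without WT spermidine replicate 2, 1 without replicate 3, and 22 without both atypical libraries, which belong to neither of its groups.

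Other genes of the pathway were called seldom outside tumors. Without spermidine in WT, none of the 12 receptors was called, and Aldh1a1 (-3.30), the nucleotide sugar transporter gene Slc35d1 (-2.40), the histamine methyltransferase gene Hnmt (-1.86) and the anion transporter gene Slco3a1 (-1.88) fell. With spermidine in WT, Aldh1a1 (-4.59), Fmo5 (-2.46), Slc35d1 (-2.64), Papss2 (-1.91), which makes the sulfate donor, and Slco2b1 (-1.81) fell. Of the 10 colonocyte markers Car1 fell in the first comparison, and Car1 and Guca2a in the second. Their mean log2 level was 7.21, 8.26 and 9.48 in WT AOM-DSS non-tumor colon, against 8.99, 8.61 and 9.81 in WT untreated colon, and 7.69, 8.23 and 8.22 in WT AOM-DSS spermidine non-tumor colon, against 8.99, 9.67 and 10.01 in WT spermidine colon. Fabp2, a small intestine marker, fell in both, by a log2 of 4.5 and 5.95. The 5 small intestine markers averaged 0.39, 0.88 and 1.06 in WT AOM-DSS non-tumor colon, against 2.13, 1.64 and 2.45 in WT untreated colon. With spermidine they averaged 1.01, 1.06 and 1.09 after AOM-DSS, against 2.61, 2.58 and 2.27 without, and neither pair overlapped. The HOX position genes averaged 6.18, 2.96 and 4.27 in WT AOM-DSS non-tumor colon, against 6.04, 6.22 and 0.54 in WT untreated colon. With spermidine they were higher after AOM-DSS in WT, at 6.44, 6.15 and 6.54, against 5.74, 5.71 and 5.28 without it. In Smox they were lower, at 2.87 to 3.36 after AOM-DSS, against 4.83 to 5.89 in untreated colon. Smox with spermidine had 1.74 to 3.83 after AOM-DSS, against 4.73 to 5.84 without it. Smooth muscle markers averaged 8.67, 5.82 and 7.85 in WT AOM-DSS non-tumor colon, against 9.60, 10.23 and 9.90 in WT untreated colon, and 7.75, 7.61 and 7.39 in WT AOM-DSS spermidine non-tumor colon, against 8.27, 8.76 and 9.17 in WT spermidine colon. Skeletal muscle markers averaged 0.67, -0.08 and 0.97, against 1.42, 1.58 and 10.03 in the first pair, where 4 of 5 fell, and 0.71, 0.44 and 0.52, against 5.26, 1.35 and 3.80 in the second, where none was called. Neutrophil and inflammation markers averaged 3.84, 2.06 and 1.16, against -0.08, 0.67 and 0.19 in the first pair, where 2 of 5 rose. The part of these lists in the enzyme changes was not tested.

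Spermidine and genotype, each taken alone, gave 1 call among the members in all. With spermidine against untreated colon edgeR called no member in either genotype: in WT 4 members reached an unadjusted p under 0.05 and 1 was called by DESeq2, where 0.00511% of all genes were called, and in Smox these counts were 3 and 0, where 0% were. Cyp2c55 had 2191, 4231 and 5286 CPM in WT spermidine colon, against 2233, 1130 and 5225 CPM in WT untreated colon. In mice labelled Smox it had 2435, 1885 and 1747 CPM with spermidine, against 2378, 630.4 and 2105 CPM without. Values overlapped in both. During AOM-DSS spermidine gave no call either, with 5 members at an unadjusted p under 0.05 and 0 by DESeq2 in WT, 18 and 3 in Smox, and 0% of all genes in both.

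Between genotypes, Smox against WT, edgeR called no member with spermidine alone (1 at an unadjusted p under 0.05, 0 by DESeq2, 0.0818% of all genes called), after AOM-DSS (6, 0 and 0.0665%) or after AOM-DSS with spermidine (15, 8 and 0.251%). Nor was any member called for a difference in the spermidine effect during AOM-DSS (2, 0 and 0%). In untreated colon 1 member was called, where 3.32% of all genes fell and 2.63% rose.

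That member was Sult4a1 (ENSMUSG00000018865.9, chromosome 15, 84076097 to 84105754). It had 3.33, 1.12 and 1.20 CPM in untreated colon labelled Smox, against 8.17, 7.91 and 27.1 CPM in WT untreated colon, without overlap and 7.66-fold lower (log2 -2.94, SE 0.71, adjusted p = 0.0242). With spermidine it had 10.7, 3.67 and 6.68 CPM in Smox, against 3.66, 2.27 and 4.49 CPM in WT, and these overlapped. The change with spermidine differed between the genotypes by a log2 of 3.95 (SE 0.97, adjusted p = 0.0345), the only call among 98 members, where 2.18% of all genes were called higher and 0.726% lower. The WT untreated library at 27.1 CPM is replicate 3, the one rich in skeletal muscle markers, and neither call held without it. Smooth muscle markers averaged 9.05, 7.67 and 7.37 in Smox untreated colon, against 9.60, 10.23 and 9.90 in WT untreated colon, and neutrophil and inflammation markers 1.73, 5.51 and 4.57, against -0.08, 0.67 and 0.19, both without overlap. Of 5 genes in each list, no smooth muscle marker and 3 neutrophil and inflammation markers were called, and the part of these lists in the Sult4a1 call was not tested. Both calls were also lost without Smox untreated replicate 2 or 3, and the difference was lost without any 1 of the WT spermidine libraries or without Smox spermidine replicate 1 or 3. Over the fits that left out 1 library the difference lay between 3.05 and 4.65, and the untreated change between -3.68 and -2.07.

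For the members described alone, the genes with the closest pattern over the 10 group means are given as a description, by Pearson's r of mean log2 CPM over 10 groups that share the same libraries. They were Lhfpl2 (0.993), Aqp11 (0.989) and Cyp2d22 (0.989) for Cyp2c55, Ugt8a (0.994), Klf6 (0.987) and Ces1g (0.986) for Cyp4b1, and Slc8a1 (0.990), Kbtbd11 (0.990) and Prap1 (0.988) for Cyp2c65. For Cyp2b10 they were Ddx5 (0.971), Cavin4 (0.960) and Pard6g (0.958), and for Gstm5 they were Gm49377 (0.987), Rec8 (0.987) and Lrrc45 (0.978).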

How the data were processed

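RNA from 30 colon samples was purified with RNeasy and made into strand-marking libraries with NEBNext Ultra II Directional, per the labels' protocols. The values deposited by the authors are estimated counts per gene for GRCm38, written as whole numbers; per the submitters' processing notes fastp, Salmon and DESeq2 were used, and their versions are not given in the sources used here. Every row carries a gene ID, and the 10593 rows without a symbol were not removed for it. Library totals were 33060607 to 81011304 counts. Depth limits low members: 3 counts over a group were taken as the floor for a group at 0, which covers counting error only.

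The test was the quasi-likelihood F test of edgeR 4.0.16, run under R 4.3.3 (TMM scaling, filterByExpr with a minimum count of 10, robust fit, 1 mean for each of 10 groups), with Benjamini-Hochberg adjustment over 19558 genes and a threshold of 0.05. All 30 libraries shared 1 estimate of spread. There were 15 comparisons between groups and 4 differences between changes. Log2 changes carry SEs derived from the F statistic. The fit was tested on simulated data. Levels are CPM, divided by exon length from GENCODE vM21 where genes are set side by side. Alternatives were DESeq2 1.42.0, other filters and scaling, single groups, and libraries left out. P-values measure the spread between mice as labelled.

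Members, lists and the rule for named genes were chosen with earlier results of these data known. Named genes are the most abundant members per family, the called members with the smallest adjusted p or largest change, and Smox.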

Additional observations from a re-analysis of the deposited data

Results flagged for a closer look

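Sult4a1 was set aside for a closer look because its change with spermidine differed between the genotypes by test. The difference was 3.95 on the log2 scale (SE 0.97, adjusted p = 0.0345 by edgeR). Spermidine colon had 10.7, 3.67 and 6.68 CPM in Smox and 3.66, 2.27 and 4.49 CPM in WT, and untreated colon had 3.33, 1.12 and 1.20 CPM in Smox and 8.17, 7.91 and 27.1 CPM in WT. The call was lost without the WT untreated library at 27.1 CPM, where the difference was 3.05. It held in 4 of the 12 fits that left out a library, and edgeR's adjusted p was 0.0875 without both atypical libraries. Sult4a1 was the only call among 98 members, where 2.18% of all genes were called higher and 0.726% lower, so it is not a result about the members as a set.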

How the results depend on the processing

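Each group has 3 libraries, and leaving out single libraries moved the counts of called members for AOM-DSS outside tumors and for Smox tumors by over 1.5 times. No paired analysis was possible because the numbers in the labels are unique to each sample and tie none together. The tumor counts of 52 in each genotype stayed within 1.5 times under every alternative other than leaving out a library, and no named member changed direction.

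With DESeq2 the count was 2 for Smox against WT untreated (1 with edgeR), 1 for WT spermidine (0), 16 for Smox AOM-DSS (0), 24 for WT AOM-DSS with spermidine (9), 4 for Smox AOM-DSS spermidine against spermidine (0), 3 for it against Smox AOM-DSS (0), 8 for Smox against WT AOM-DSS spermidine (0), and 1 and 2 for the genotype differences in the AOM-DSS and tumor changes (0 each). Without both atypical libraries it was 0 for Smox against WT untreated, 2 for WT AOM-DSS (15), 9 for Smox AOM-DSS, 22 for WT AOM-DSS with spermidine, 4 for Smox against WT AOM-DSS spermidine and 0 for the spermidine difference (1). With only the compared groups fitted it was 0, 0, 5 and 42 for the first 4 of these. Without a filter it was 8 for WT AOM-DSS and 0 for the spermidine difference, and with a filter at 1 CPM it was 1 for Smox AOM-DSS. The cause was not tested. The share of all genes called is not given for these settings or for the fits that left out a library. A larger or smaller count here is therefore not a result about the members.

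Leaving out 1 library at a time gave 0 to 1 for Smox against WT untreated, 0 to 18 for WT AOM-DSS, 0 to 1 for Smox AOM-DSS, 0 to 7 for WT AOM-DSS with spermidine, 0 to 6 for Smox AOM-DSS spermidine, 0 to 2 for Smox against WT AOM-DSS spermidine, 38 to 53 for WT tumors, 15 to 54 for Smox tumors, and 0 to 1 for the differences with spermidine, AOM-DSS and tumors.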
